A study of Mus musculus with 2 samples.

Results

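The cell cycle and DNA replication genes described here are 40 genes chosen by name, 15 that act in S phase and DNA replication and 25 that act in G2 and mitosis. Of these, 39 had a row of their own among the 22882 gene symbols of the files. Foxm1, the forkhead factor that switches on mitotic genes, shared its row with 4933413G19Rik and is given apart from the counts. The 2 libraries came from whole hearts of 23 day old mice of mixed sex on the C57BL6/J background. Both genotypes carried Med1 alleles with loxP-flanked exons. The csMed1-/- mice also carried α-MyHC-Cre, a recombinase driven by the α-myosin heavy chain promoter, which is active in cardiomyocytes from late gestation onward, so other cells of the heart kept Med1. For each genotype the heart RNA of 5 mice was combined into 1 library. There were therefore no replicates, no test between the genotypes was possible, and no value below carries an error. Levels are given in deposited FPKM, a read number per transcript length and library depth. A ratio is csMed1-/- over Med1fl/fl, and higher or lower means past 2-fold.

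DNA replication and mitosis are run by successive waves of transcription. E2F factors, held back by the retinoblastoma family until cyclin-dependent kinases release them, switch on the genes for origin licensing, nucleotide supply and the replication fork. Later the MuvB complex, with B-Myb and FoxM1, switches on the genes for entry into mitosis, the spindle and cytokinesis. Mouse cardiomyocytes stop dividing soon after birth, and cell cycle genes are scarce in the older heart. The p21 protein, encoded by Cdkn1a, inhibits cyclin-dependent kinases.

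The mitotic genes were mostly higher in csMed1-/- heart and the replication genes were not. Of the 24 G2 and mitosis genes with a row of their own, 17 were higher, 2 were lower and 5 lay within 2-fold, with a median log2 ratio of 1.47. Of the 15 S phase and DNA replication genes, 0 were higher, 1 was lower and 14 lay within 2-fold, with a median of 0.24. Over all 15930 genes above 0 in both libraries, 15.7% were higher and 20.0% were lower, and the median was -0.07. All 39 genes were above 0 in both libraries. The ratio was above 1 for 22 of the 24 mitotic genes and for 8 of the 15 replication genes. The difference between the 2 groups was not tested, and fewer cells of a type and less RNA per cell cannot be told apart in whole hearts.

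The promoters of the mitotic genes differed from most promoters in the sequences they held. RefSeq promoters on the GRCm38.p6 build, from 250 bases before to 50 bases after the transcript start, were matched by symbol for 12 of the replication genes and 20 of the mitotic genes. They were searched on both strands for the cell cycle genes homology region (CHR), read as the letters TTTGAA and also as TTCGAA, where MuvB binds. They were searched likewise for the CCAAT box, spelled CCAAT, and for an E2F element, spelled TTTNNCG with each N a C or a G. A CHR element and a CCAAT box stood together in 16 of the 20 mitotic promoters (80.0%) and in 2 of the 12 replication promoters (16.7%). Among the promoters of all 15450 genes with a row and an entry, 7.13% held both. The E2F element was found in 6 of the 12 replication promoters, in 4 of the 20 mitotic promoters and in 8.43% of all promoters. A match is a description of these letters and no evidence that a factor binds. The 160 bases before the start are shown for 7 genes, 5′ to 3′ on the strand of the gene, with every match in capitals. Cdc20, Cdk1 and Ube2c are shown because they held both mitotic elements and were higher, Kif11 because it held both and lay near an equal level, Ccnb1 because it was higher with CCAAT boxes alone, and Mcm5 and Mcm6 as replication promoters with E2F elements.
Cdc20, chr4:118437344-118437503, minus strand: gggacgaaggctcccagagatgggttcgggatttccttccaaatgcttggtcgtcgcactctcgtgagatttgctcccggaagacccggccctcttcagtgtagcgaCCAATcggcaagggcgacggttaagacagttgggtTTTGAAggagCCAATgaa
Cdk1, chr10:69352913-69353072, minus strand: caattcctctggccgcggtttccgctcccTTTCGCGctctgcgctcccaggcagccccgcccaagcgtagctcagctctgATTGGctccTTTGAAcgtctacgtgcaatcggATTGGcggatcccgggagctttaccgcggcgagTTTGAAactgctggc
Ube2c, chr2:164769769-164769928, plus strand: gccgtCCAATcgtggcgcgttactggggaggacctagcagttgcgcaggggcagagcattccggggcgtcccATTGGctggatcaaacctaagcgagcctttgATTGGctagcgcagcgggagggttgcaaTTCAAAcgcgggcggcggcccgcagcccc
Kif11, chr19:37376222-37376381, plus strand: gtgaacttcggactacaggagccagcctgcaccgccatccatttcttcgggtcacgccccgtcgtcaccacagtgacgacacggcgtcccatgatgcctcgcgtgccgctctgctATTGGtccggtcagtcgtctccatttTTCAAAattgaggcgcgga
Ccnb1, chr13:100786487-100786646, minus strand: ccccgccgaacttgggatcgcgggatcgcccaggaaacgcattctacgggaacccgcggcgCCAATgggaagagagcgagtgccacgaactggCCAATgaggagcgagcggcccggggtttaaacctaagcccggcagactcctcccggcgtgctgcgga
Mcm5, chr8:75109349-75109508, plus strand: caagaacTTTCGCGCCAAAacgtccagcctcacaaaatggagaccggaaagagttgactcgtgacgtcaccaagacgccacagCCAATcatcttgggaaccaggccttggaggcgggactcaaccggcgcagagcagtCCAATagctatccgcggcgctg
Mcm6, chr1:128359706-128359865, minus strand: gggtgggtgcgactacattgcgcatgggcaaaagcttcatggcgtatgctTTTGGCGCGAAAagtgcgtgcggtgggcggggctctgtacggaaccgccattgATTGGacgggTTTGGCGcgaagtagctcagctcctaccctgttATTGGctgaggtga

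In the Cdc20 promoter the CHR element began 18 bases before the start, between CCAAT boxes at 53 and 8 bases. In Cdk1 there were CHR elements at 71 and 15 bases and an E2F element at 131 bases before the start. In the Ube2c promoter a CHR element on the opposite strand lay 29 bases before the start. The first capital run of Mcm5 joins 2 overlapping E2F matches on opposite strands, and so does the first run of Mcm6. Other mitotic promoters had the CHR element just past the start, as in Plk1 at 30 bases, outside the stretch shown. No entry was at hand for Mcm4, Gins2, Ccne2, Ccna2, Aurkb, Kif20a, Tpx2 or Foxm1.

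**Figure D1:**
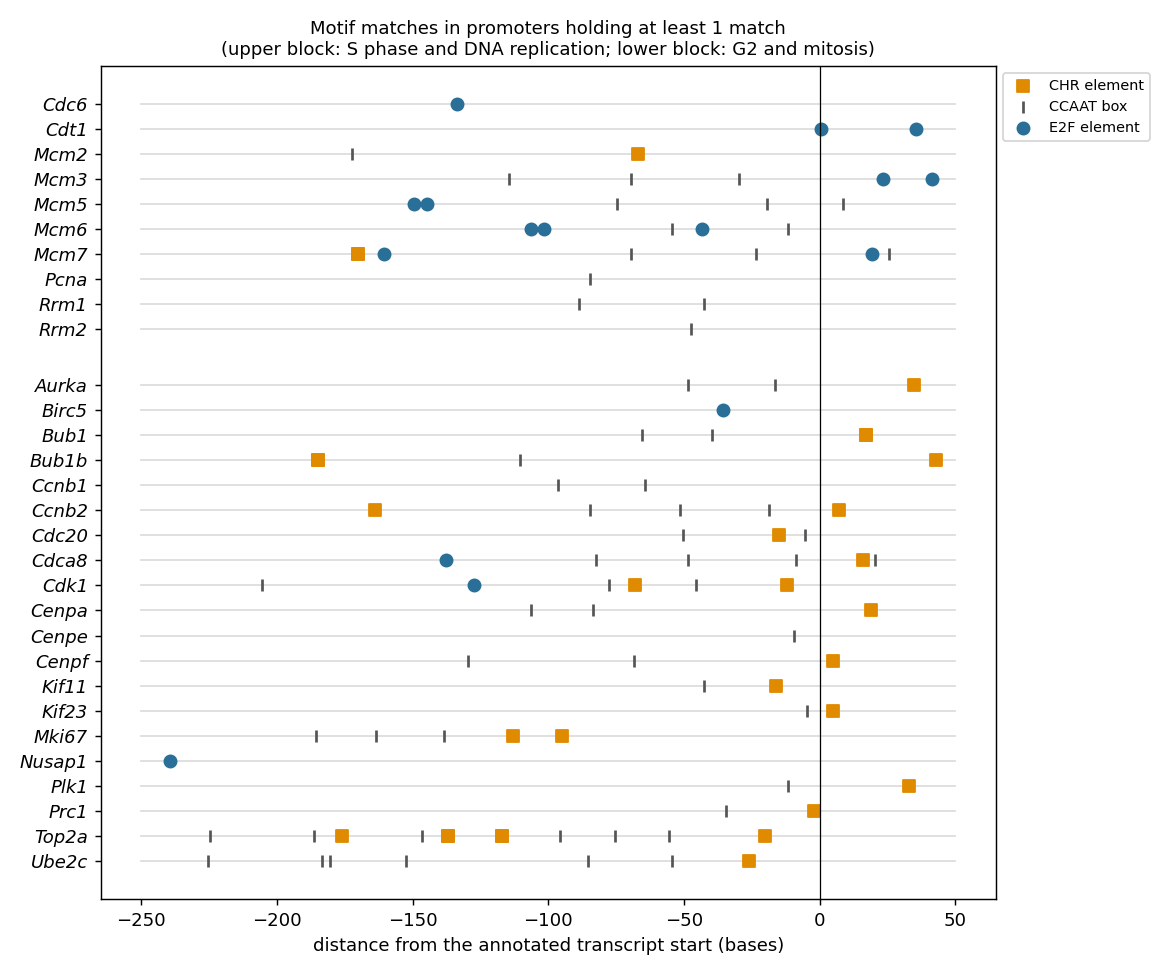
Matches to the CHR element, the CCAAT box and the E2F element in each promoter with at least 1 match, by distance in bases from the transcript start, with replication genes above and mitotic genes below. CHR elements and CCAAT boxes stand together in 16 mitotic promoters, while E2F elements are found in 6 replication promoters and 4 mitotic ones.

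Outside the 40 genes, promoters with both mitotic elements and promoters with neither had close shares of higher genes. Among the other genes above 0 in both libraries, 630 had promoters with both elements, and 15.9% of these were higher. The share was 15.3% among the 5918 genes whose promoters held neither. The median log2 ratio was -0.09 in the first set and -0.08 in the second. Within the mitotic genes, 10 of the 16 with both elements were higher and 2, Cenpa and Cenpf, were lower. Of the mitotic genes with a promoter lacking 1 or both elements, Ccnb1, Cenpe and Birc5 were higher and Nusap1 lay within 2-fold. The genes lacking an element were too few for their share to be compared with that of the 16. Among these few, Cenpe was at only 0.00124 FPKM in Med1fl/fl and 0.00698 FPKM in csMed1-/- heart.

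The kinase genes Plk1, Cdk1 and Aurka and the 3 listed A-type and B-type cyclin genes were all higher in csMed1-/- heart. Plk1, the polo-like kinase that acts from mitotic entry to cytokinesis (chromosome 7, 122159439 to 122169873, plus strand), stood at 0.482 FPKM in Med1fl/fl and 2.84 FPKM in csMed1-/- heart. Its ratio of 5.89 was the highest of the 39 and the 466th of all 15930. Ccnb1, cyclin B1 (chromosome 13, 100778650 to 100786570, minus strand), was 0.172 FPKM in Med1fl/fl and 0.932 FPKM in csMed1-/- heart, 5.42-fold higher. Cdk1, its kinase partner (chromosome 10, 69335146 to 69352938, minus strand), was 0.322 FPKM against 1.39 FPKM, 4.33-fold higher. The second B-type cyclin gene and cyclin A differed less. Ccnb2 was 0.694 FPKM in Med1fl/fl and 1.95 FPKM in csMed1-/- heart. Ccna2, whose product serves both S phase and mitosis, was 0.390 FPKM and 0.800 FPKM, just past the threshold with a ratio of 2.05. Aurka, a kinase of the centrosome and spindle poles, was 0.679 FPKM in Med1fl/fl and 2.39 FPKM in csMed1-/- heart, 3.51-fold higher. Tpx2, which activates that kinase on the spindle, was 0.184 FPKM and 0.399 FPKM, 2.17-fold higher.

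The row that joins Foxm1 and 4933413G19Rik followed the same course. It held 0.461 FPKM in Med1fl/fl and 2.02 FPKM in csMed1-/- heart, 4.39-fold higher. The reads of the 2 genes cannot be told apart in it.

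The chromosomal passenger complex corrects faulty attachments of chromosomes to the spindle, and its 3 listed genes were higher. Aurkb, its kinase, was 0.464 FPKM in Med1fl/fl and 1.56 FPKM in csMed1-/- heart, 3.36-fold higher. Birc5, which encodes survivin, was 0.780 FPKM against 2.26 FPKM, 2.90-fold higher. Cdca8, which encodes borealin, was 0.394 FPKM against 1.01 FPKM, 2.55-fold higher. Incenp, another gene of this complex, belongs to the wider list of mitotic genes described below. It lay within 2-fold, at 0.908 FPKM in Med1fl/fl and 1.28 FPKM in csMed1-/- heart, so the complex was not higher in all its genes. The anaphase-promoting complex, which marks cyclin B for destruction, was represented by an activator and a ubiquitin-conjugating enzyme. Cdc20, the listed activator (chromosome 4, 118432901 to 118437352, minus strand), was 1.93 FPKM in Med1fl/fl and 7.68 FPKM in csMed1-/- heart, 3.99-fold higher. Ube2c, the enzyme (chromosome 2, 164769898 to 164778822, plus strand), was 3.27 FPKM against 8.50 FPKM, 2.60-fold higher. In csMed1-/- heart Cdc20 and Ube2c stood above all other listed mitotic genes but Cenpa, the wider list left aside.

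A pair of central spindle genes and a pair of chromosome genes were higher as well, at low levels. Kif20a, a kinesin of cytokinesis, was 0.376 FPKM in Med1fl/fl and 1.25 FPKM in csMed1-/- heart, 3.31-fold higher. Prc1, which bundles the microtubules of the central spindle, was 0.154 FPKM against 0.421 FPKM, 2.74-fold higher. Top2a, the topoisomerase that untangles sister chromatids, was 0.0515 FPKM in Med1fl/fl and 0.165 FPKM in csMed1-/- heart, 3.21-fold higher. Mki67, which encodes the Ki-67 antigen used to mark cycling cells, was 0.0214 FPKM against 0.0714 FPKM, 3.34-fold higher. The FPKM of Mki67 and Top2a were thus far below those of Cdc20 and Ube2c in either heart. Base composition differed too, at 46.6% GC for Mki67, 43.4% for Top2a, 55.6% for Cdc20 and 51.4% for Ube2c. Among all genes, the median Med1fl/fl level was 0.288 FPKM in transcripts of 32.8 to 42.2% GC. It was 9.97 FPKM in those of 56.3 to 58.5% GC. The part of base composition in these levels was not tested.

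Bub1b, Kif11, Kif23 and Nusap1, which act in the checkpoint and on the spindle, lay within 2-fold. Bub1b, which encodes the checkpoint kinase BubR1, was 0.333 FPKM in Med1fl/fl and 0.601 FPKM in csMed1-/- heart, just inside the threshold with a ratio of 1.80. Kif11, the motor that pushes spindle poles apart, was 0.0807 FPKM against 0.0844 FPKM, a ratio of 1.05. Kif23, a motor of the central spindle, was 0.0597 FPKM and 0.0769 FPKM. Nusap1, a spindle microtubule protein gene, was 0.0389 FPKM and 0.0599 FPKM. These 3 genes stood below 0.1 FPKM in both hearts.

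Kinetochore genes went in both directions. Cenpa, the histone H3 variant that marks the centromere (chromosome 5, 30666777 to 30674830, plus strand), was the most abundant of the 24 mitotic genes at 26.9 FPKM in Med1fl/fl heart. It was 13.2 FPKM in csMed1-/- heart, 2.04-fold lower. Cenpf, a large kinetochore protein gene, was 0.0960 FPKM and 0.0325 FPKM, 2.95-fold lower. Cenpe, a kinetochore motor gene, was 0.00124 FPKM against 0.00698 FPKM. Bub1, the checkpoint kinase at the kinetochore, was 0.00337 FPKM and 0.00489 FPKM. Cenpe and Bub1 stood below 0.01 FPKM in both hearts, where values move in steps of single reads. The summed level of the mitotic genes was 37.8 FPKM in Med1fl/fl and 47.6 FPKM in csMed1-/- heart, and most of the first sum was Cenpa. The ratio of these sums was 1.26. Without Cenpa, the other 23 genes summed to 11.0 FPKM and 34.5 FPKM, a ratio of 3.14.

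Exons of 7 mitotic genes overlap those of a gene on the opposite strand, and whether the counting used strand is not stated. Of these neighbours, those of Ccna2, Cdca8, Kif20a and Prc1 lay within 2-fold. Elovl1, which overlaps Cdc20, was 26.3 FPKM in Med1fl/fl and 63.1 FPKM in csMed1-/- heart. Oip5, itself a centromere gene that overlaps Nusap1, was 0.101 FPKM and 0.270 FPKM. Tnnc2, which overlaps Ube2c, was 0.0517 FPKM and 0.158 FPKM, far below Ube2c in both hearts.

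**Figure D2:**
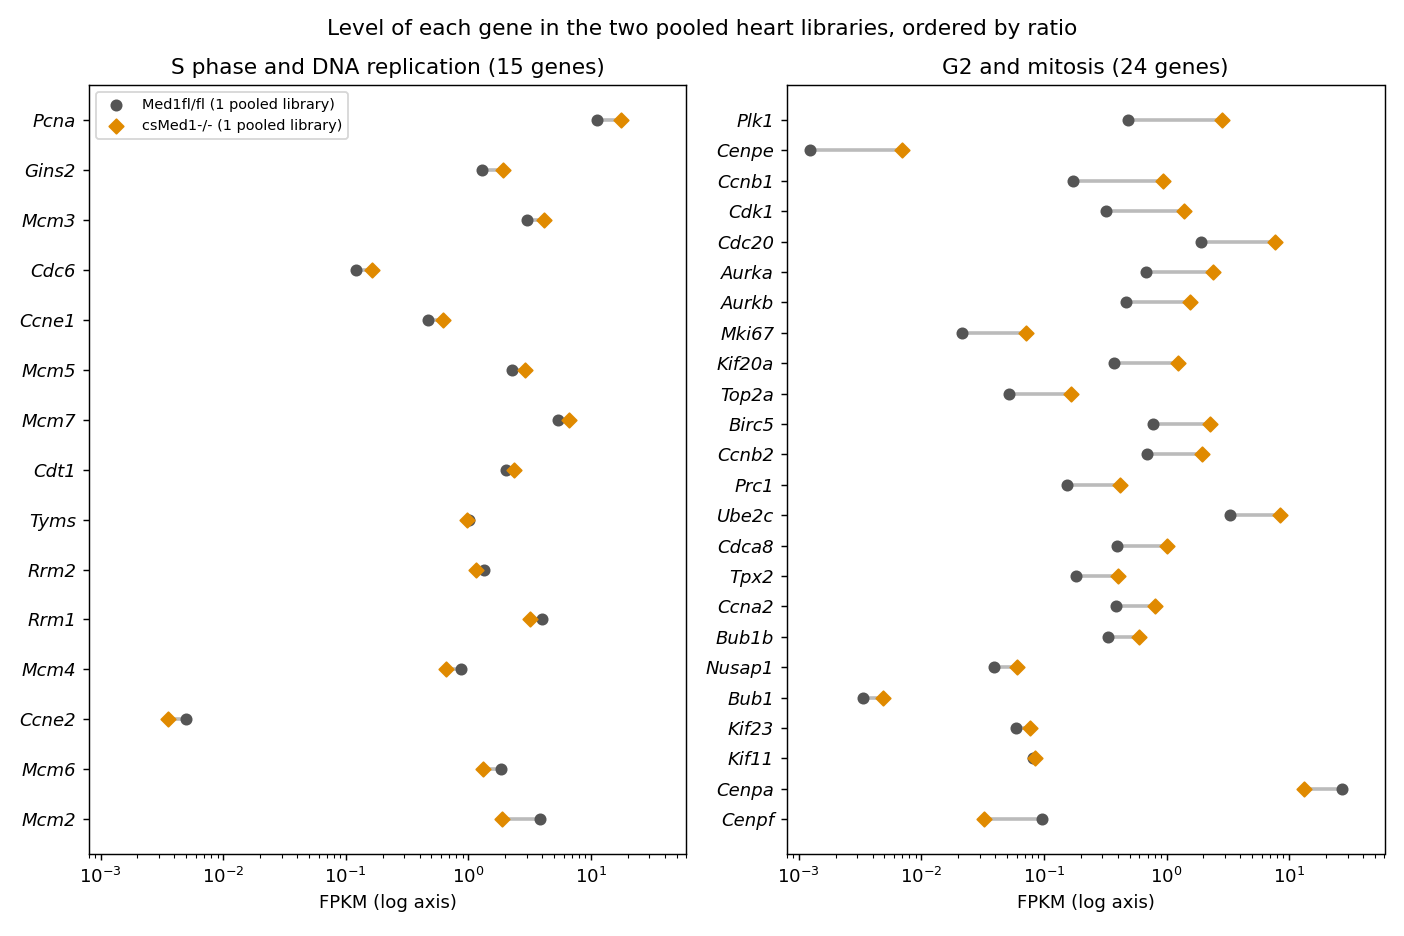
FPKM (log axis) of each gene in the Med1fl/fl library (circles) and the csMed1-/- library (diamonds), 1 pooled library each, with replication genes on the left and mitotic genes on the right, ordered by ratio. The symbols lie close together for most replication genes, while 17 of the 24 mitotic genes have the diamond more than 2-fold to the right of the circle.

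The share of mitotic genes that were higher varied with their level. Of the 7 with a mean of both libraries below 0.1 FPKM, 2 were higher and 1 was lower, where 22.1% of all genes at that level were higher and 27.8% lower. Of the 9 between 0.1 and 1 FPKM, 8 were higher and 0 lower, against 19.2% and 22.9% of all genes. All 7 between 1 and 10 FPKM were higher (Ccnb2, Cdc20, Aurka, Aurkb, Plk1, Birc5 and Ube2c), where 11.6% of all genes were higher and 19.7% lower. Of these 7, only Cdc20 and Ube2c exceeded 1 FPKM in Med1fl/fl heart, and the other 5 were placed at this level by their csMed1-/- value. Cenpa, the only one above 10 FPKM, was lower. Of the 24 genes, 8 reached 1 FPKM in csMed1-/- heart alone, so a filter on either heart, or a grouping by the mean of both, places genes by their csMed1-/- value, and no count after such a filter or grouping is used as support. Of the 10489 genes that this filter kept, 13.6% were higher and 18.0% lower. Past 4-fold, the shares were 4.32% and 5.14%. With a filter on the mean of both hearts, they were 13.0% and 17.1% past 2-fold.

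**Figure D3:**
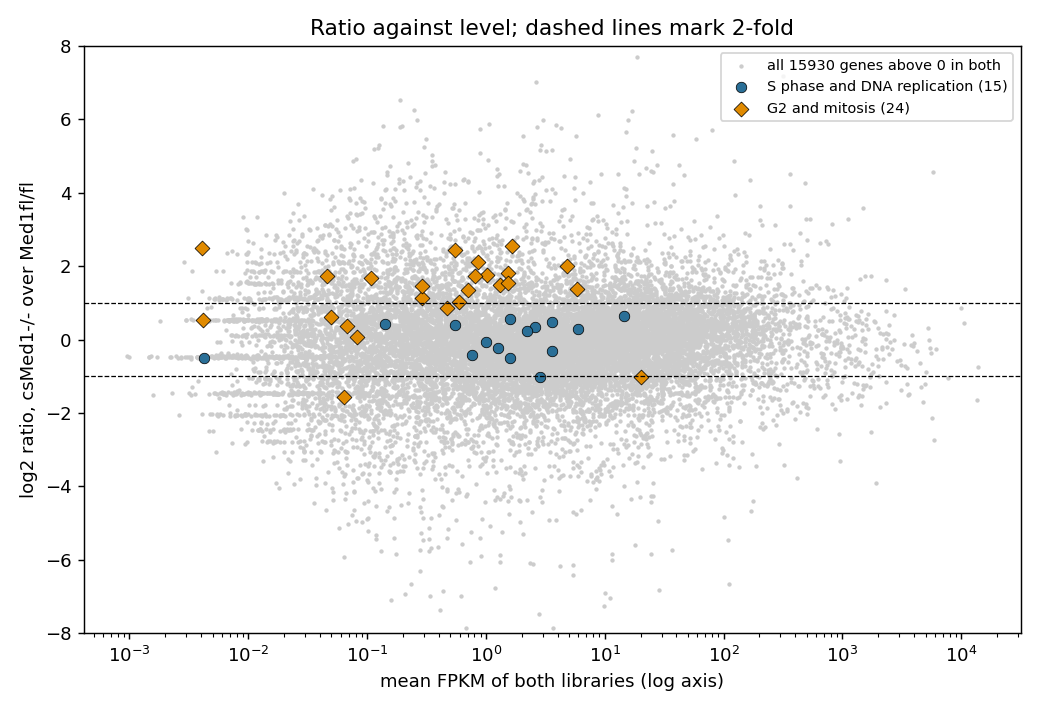
Log2 ratio of csMed1-/- over Med1fl/fl against the mean FPKM of both libraries (log axis) for all 15930 genes above 0 in both (grey), the replication genes (circles) and the mitotic genes (diamonds), with dashed lines at 2-fold. Over all levels, 17 of the 24 mitotic genes lie above the upper line and 2 below the lower one, beside 15.7% and 20.0% of all genes. The mean on the level axis includes the csMed1-/- value, so a gene higher there is also placed further right.

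At the replication origin and fork, levels in the 2 hearts were close. The Mcm2 to Mcm7 proteins form the helicase that opens DNA at the fork, and their genes were spread on both sides of an equal level. Mcm3 was 2.99 FPKM in Med1fl/fl and 4.17 FPKM in csMed1-/- heart. Mcm5 was 2.27 FPKM and 2.89 FPKM. Mcm7 was 5.40 FPKM and 6.58 FPKM. These 3 subunit genes had ratios from 1.22 to 1.39. The other 3 were lower in value in csMed1-/- heart. Mcm4 was 0.867 FPKM and 0.652 FPKM. Mcm6 was 1.85 FPKM and 1.31 FPKM. Mcm2 (chromosome 6, 88883474 to 88898780, minus strand), at 3.82 FPKM and 1.88 FPKM, was the only replication gene past 2-fold, with a ratio of 0.492. The subunits of this complex thus did not share a direction. The exons of Mcm7 overlap those of the abundant gene Cops6 on the opposite strand, at 169 FPKM and 194 FPKM.

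The loading factors and the clamp were somewhat higher in value in csMed1-/- heart, none past 2-fold. Cdc6, which helps load the helicase on origins, was 0.121 FPKM in Med1fl/fl and 0.163 FPKM in csMed1-/- heart. Cdt1, its partner in loading, was 2.02 FPKM and 2.38 FPKM. Gins2, a subunit of the GINS complex of the active helicase, was 1.28 FPKM and 1.90 FPKM. Its exons overlap those of Gse1 on the opposite strand, at 6.74 FPKM and 11.7 FPKM. Pcna, the sliding clamp of the DNA polymerases (chromosome 2, 132249162 to 132253314, minus strand), was the most abundant replication gene at 11.2 FPKM and 17.6 FPKM. Its ratio of 1.57 was the highest of the 15.

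Nucleotide supply and cyclin E genes were also within 2-fold. Rrm1 and Rrm2 encode the subunits of ribonucleotide reductase, which makes deoxynucleotides. Rrm1 was 3.99 FPKM in Med1fl/fl and 3.20 FPKM in csMed1-/- heart. Rrm2 was 1.35 FPKM and 1.16 FPKM. Tyms, the thymidylate synthase gene, was 1.02 FPKM and 0.981 FPKM, close to an equal level. Cyclin E starts S phase together with Cdk2. Ccne1 was 0.469 FPKM in Med1fl/fl and 0.623 FPKM in csMed1-/- heart. Ccne2 was 0.00499 FPKM and 0.00354 FPKM. Its ratio of 0.71 lies beside 0.722, the ratio estimated for 1 read in each library from low values, those of Ccne2 among them. Its exons overlap those of Ints8 on the opposite strand, at 0.30 FPKM and 0.33 FPKM. The 15 replication genes together summed to 38.7 FPKM in Med1fl/fl and 45.5 FPKM in csMed1-/- heart.

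Wider lists of genes gave the setting for these values. Of 63 other mitotic genes, 57 were above 0 in both libraries, and of these 30 were higher, 3 were lower and 24 lay within 2-fold, with a median log2 ratio of 1.05, beside 15.7% higher, 20.0% lower and a median of -0.07 over all genes. With 1 FPKM or more in either heart, 9 of 21 were higher and 2 were lower, with a median of 0.49, beside 13.6% and 18.0% of all genes. Of these 21, 11 reached 1 FPKM in csMed1-/- heart alone, among them all 9 higher genes. The count after this filter is therefore not used as support. The 63 genes summed to 252 FPKM in Med1fl/fl and 235 FPKM in csMed1-/- heart. The largest part of each sum was Pttg1, at 109 FPKM and 69.8 FPKM. Next came Fzr1 at 45.2 FPKM and 50.5 FPKM, Bub3 at 34.3 FPKM and 37.6 FPKM, and Stmn1 at 16.9 FPKM and 16.5 FPKM. These abundant genes all lay within 2-fold. Of the 63 genes, 6 were listed at 0 in Med1fl/fl and above 0 in csMed1-/- heart, all below 0.1 FPKM. Cdca3, which promotes the destruction of Wee1, was 0.613 FPKM in Med1fl/fl and 5.26 FPKM in csMed1-/- heart. Kif18b, a spindle kinesin gene, was 0.132 FPKM and 1.06 FPKM, and Fam64a, also known as Pimreg, was 0.626 FPKM and 4.23 FPKM. Wee1, the kinase that holds Cdk1 inactive, went the other way, at 12.8 FPKM and 3.74 FPKM, and Ndc80, a kinetochore gene, was lower at 0.0164 FPKM and 0.00777 FPKM. The condensin genes went in both directions. Ncapd3 lay just past 2-fold lower at 1.43 FPKM and 0.712 FPKM, and Ncapd2 was 8.85 FPKM and 5.27 FPKM. Smc2 and Smc4 were higher at low levels, at 0.0109 FPKM and 0.0589 FPKM for Smc2 and at 0.0428 FPKM and 0.173 FPKM for Smc4. Ncaph and Ncapg2 were close to equal, with log2 ratios of 0.05 and -0.0018, and Ncapg was listed at 0 in Med1fl/fl heart.

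Of 47 other replication genes, 6 were higher, 10 were lower and 31 lay within 2-fold, with a median of -0.10. Over all genes, 15.7% were higher and 20.0% lower. The list therefore had about the spread of all genes. Gmnn, which encodes geminin, the inhibitor of Cdt1, was 9.89 FPKM in Med1fl/fl and 0.986 FPKM in csMed1-/- heart. Dut, the dUTPase that keeps uracil out of DNA, was 9.63 FPKM and 1.36 FPKM. Timeless, a fork protection gene, was 1.48 FPKM and 0.386 FPKM. Mcm9, a helicase of DNA repair, was higher, at 0.442 FPKM and 1.39 FPKM. Chaf1b, a subunit of the chromatin assembly factor, was 0.492 FPKM and 1.16 FPKM, and Rfc5, a subunit of the clamp loader, was 4.63 FPKM and 10.1 FPKM.

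**Figure D4:**
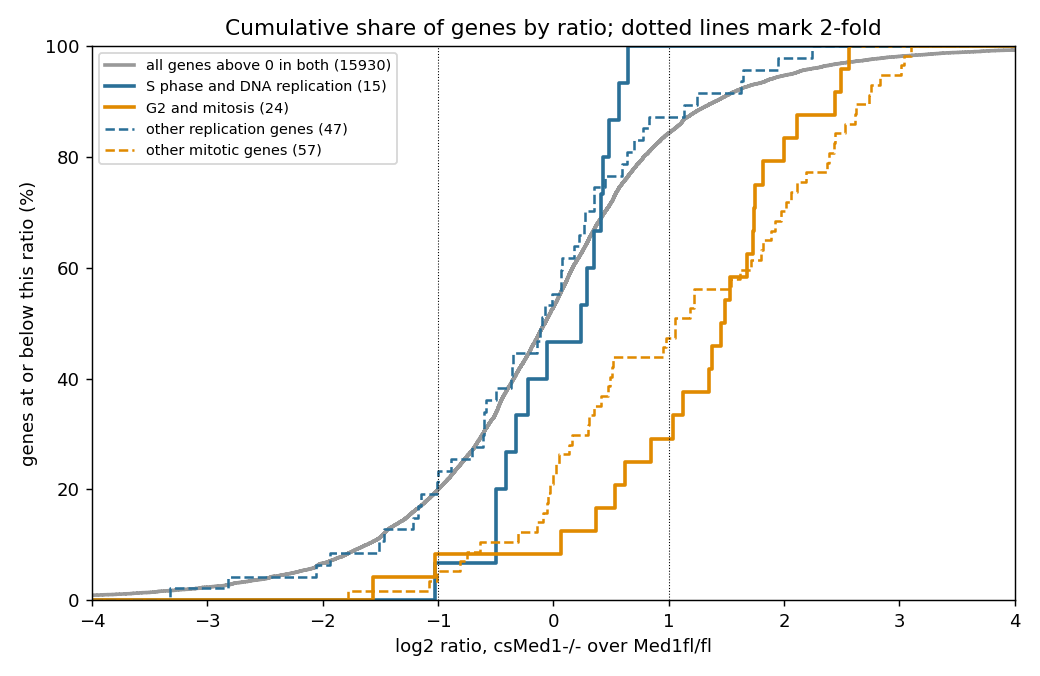
Cumulative share (%) of genes at or below each log2 ratio of csMed1-/- over Med1fl/fl for all 15930 genes, the replication and mitotic genes (solid) and the other replication and mitotic genes (dashed), with dotted lines at 2-fold. Both mitotic curves lie to the right of the curve of all genes, with medians of 1.47 and 1.05, among genes mostly below 1 FPKM in Med1fl/fl heart, and the other replication genes follow the curve of all genes.

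Among 20 genes for G1 cyclins, their kinases and inhibitors, 2 were higher, 3 were lower and 15 lay within 2-fold. Over all genes above 0 in both libraries, 15.7% were higher and 20.0% lower, so the list as a whole did not stand out. Cdkn1a was 30.5 FPKM in Med1fl/fl and 693 FPKM in csMed1-/- heart, 22.7-fold higher. Cdkn2b, an inhibitor of Cdk4 and Cdk6, was the other higher gene at 0.155 FPKM and 0.604 FPKM. Ccnd1, cyclin D1, was 9.83 FPKM and 3.66 FPKM, and Ccnh, the cyclin of the kinase that activates other cyclin-dependent kinases, was 3.35 FPKM and 1.09 FPKM. Cdk6, a partner of the D-type cyclins, was also lower, at 0.724 FPKM and 0.307 FPKM. Values closer to an equal level were found for Cdc25a, a phosphatase that activates these kinases, at 1.98 FPKM and 1.05 FPKM. Mnat1, which assembles the activating kinase, was 1.58 FPKM and 2.66 FPKM, and Ccnd2, cyclin D2, was 5.32 FPKM and 8.47 FPKM. Cdkn1a and the kinase genes Plk1, Cdk1, Aurka and Aurkb were thus higher in the same library.

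Among 19 genes for E2F factors, MuvB, B-Myb and the CCAAT-binding factor NF-Y, 2 were higher, 3 were lower and 14 lay within 2-fold. This list did not stand out either, beside 15.7% higher and 20.0% lower over all genes. E2f2, an activating E2F, was 0.274 FPKM in Med1fl/fl and 1.08 FPKM in csMed1-/- heart. E2f6, a repressing E2F, was 25.3 FPKM and 4.50 FPKM. The other higher gene was Mybl2, which encodes B-Myb, at 0.141 FPKM and 0.385 FPKM. E2f5 and E2f8 were lower as well, at 0.704 FPKM and 0.212 FPKM for E2f5 and at 0.315 FPKM and 0.117 FPKM for E2f8. Ndc80, Pttg1, Fzr1, Bub3, Stmn1, Incenp, Smc2, Smc4, Ncaph, Ncapg2, Ncapg, Cdkn2b, Cdk6, Mybl2, E2f5 and E2f8 were named after their values were seen. The MuvB genes Lin37 and Rbbp4 lay within 2-fold, at 13.8 FPKM and 19.6 FPKM for Lin37 and at 36.8 FPKM and 55.9 FPKM for Rbbp4. Nfyc, an NF-Y subunit gene, was 59.4 FPKM and 32.7 FPKM, and Tfdp2, an E2F partner gene, was 3.23 FPKM and 1.90 FPKM.

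Several whole-library values moved beside these results, and their part in them was not tested. Med1 itself (chromosome 11, 98152154 to 98193293, minus strand) was 3.38 FPKM in Med1fl/fl and 0.412 FPKM in the deleted heart, or 0.122 of its level. Steps among low values gave the csMed1-/- library 1.39 times the reads of the other. This value was sought only in a range where csMed1-/- is the deeper library, and the absolute depth is not in the files. Marker counts here and in the next paragraph stand beside 15.7% higher and 20.0% lower over all genes above 0 in both libraries. Of 10 fibroblast markers, 5 (Tcf21, Col1a1, Col1a2, Postn and Fn1) were higher and 1 (Lum) was lower, and they summed to 699 FPKM and 1507 FPKM. Vim and Col3a1, the most abundant of them in Med1fl/fl heart, were within 2-fold, at 178 FPKM and 269 FPKM for Vim and at 139 FPKM and 220 FPKM for Col3a1. The heart label was met by the cardiomyocyte genes Myl2, at 20470 FPKM and 6571 FPKM, and Myl3, at 17340 FPKM and 10280 FPKM. Of the 7 cardiomyocyte markers above 0 in both libraries, 4 (Myl2, Tnnt2, Tnni3 and Ryr2) were lower and 0 were higher. Actc1 and the row that joins Myh6 and Myh7 were listed at 0 in Med1fl/fl heart and at 9189 FPKM and 647 FPKM in csMed1-/- heart, so a 0 in these files need not mean an absent transcript.

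Among red cell markers, Alas2, the erythroid heme synthesis gene, was higher, at 35.8 FPKM in Med1fl/fl and 82.1 FPKM in csMed1-/- heart. Tfrc, the transferrin receptor gene, was within 2-fold at 4.68 FPKM and 2.62 FPKM. The joined row of the β-globin genes was 1.81-fold and that of the α-globin genes 1.36-fold the Med1fl/fl level. Of 10 macrophage markers 1 (Cd14) was higher and 1 (Ptprc) was lower, and they summed to 257 FPKM and 256 FPKM, with Lyz2 at 116 FPKM and 68.0 FPKM and C1qa at 91.1 FPKM and 123 FPKM. Of 10 endothelial markers 1 (Vwf) was higher and 3 (Kdr, Tek and Emcn) were lower, and they summed to 714 FPKM and 685 FPKM, with Eng at 196 FPKM and 233 FPKM and Cdh5 at 129 FPKM and 92.2 FPKM. Of 8 smooth muscle and pericyte markers 3 (Cnn1, Tagln and Cspg4) were higher and 1 (Myh11) was lower, and they summed to 722 FPKM and 1143 FPKM. Cnn1 alone gave 622 FPKM of the second sum, with Acta2 at 573 FPKM and 310.0 FPKM and Pdgfrb at 49.6 FPKM and 45.9 FPKM. Lymphocyte markers were low, with Cd79a at 0.707 FPKM and 0.523 FPKM and Cd4 at 0.338 FPKM and 0.297 FPKM. Markers in parentheses were named after their values were seen.

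Base composition went with the ratio of all genes in the 2 libraries. In 10 bins of transcript GC content, the median log2 ratio of all genes was 0.17 in the lowest bin, of 32.8 to 42.2% GC, -0.40 in the bin of 46.9 to 48.9% GC and 0.30 in the bin above 58.5% GC. The transcripts of the 24 mitotic genes held 41.0 to 56.0% GC. For the centring, 10 bins were drawn instead from genes at 1 FPKM or more in either heart, so their medians are not those given above. With each ratio centred on the median of such a bin, 18 of the 24 mitotic genes were higher and 1 was lower, and their median log2 ratio was 1.79. The share of all genes past 2-fold after this centring was not counted. Bub1b moved past 2-fold under that centring and Cenpa moved inside it.

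The lower values of Mcm2 and Cenpa stood close to the threshold, and both moved inside 2-fold when the ratios were centred on the median of all genes or scaled to the 75th percentile. With 0.1 FPKM added to both values, 12 of the 24 mitotic genes were higher and 1 was lower, with a median log2 ratio of 0.96. With 1 FPKM added, the median was 0.34 and 4 of the 24 remained past 2-fold, Cdc20, Aurka, Plk1 and Ube2c, since most of the group lay near or below 1 FPKM. The share of all genes past 2-fold was not counted with either amount added, so these counts have no background beside them.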

How the data were processed

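Poly(A) RNA of 5 pooled hearts per genotype was sequenced from directional libraries with single-end reads of 50 bp. Alignment by the authors used TopHat v2.0.8b and mm10. Cufflinks and cuffdiff (v2.1.1) then gave the FPKM of known genes that were deposited. The library scaling and the strand setting of the counting are not given in the sources used here. The submitters' processing notes also list STAR 2.4.0h, with no role.

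The values were used as deposited. Rows sharing a symbol (412 of 22882 symbols) were summed, and 210 rows that join several genes were kept apart. The ratio of csMed1-/- to Med1fl/fl FPKM was counted past 2-fold. The filter laid down for the counts required values above 0 in each library and at least 1 FPKM in the higher one, which left 10489 genes, of which 13.6% were higher and 18.0% lower. Since mitotic genes passed it through the csMed1-/- value, the text leads with all genes above 0 in both. With 1 library per genotype no test was made. The files give no read numbers and the absolute depth is unknown. The relative depth came from the 2461 rows that were above 0 and did not exceed 0.15 FPKM in either library. It was taken from their most common ratio within a range set below 1. That range fixed which library came out deeper. Exons, positions, transcript lengths and GC content came from GENCODE M21 (GRCm38), and promoters from RefSeq, taking the first listed start of each gene. The computation was tested on simulated data.

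The genes and lists were chosen with earlier results of these data known. Named are all 40 genes, the 3 genes of each wider list with the largest ratio in each direction among those tested (and genes at 0 where fewer than 5), the 2 markers of each list with the highest Med1fl/fl level, and Med1. Counts and sums over the erythroid and lymphocyte markers are not reported here. Overlapping genes and rows that join genes were added after the files were seen. Alternatives were pseudocounts of 0.1 and 1, other filters, scalings and thresholds, and the highest row per symbol. A filter on the mean of both libraries and centring within 10 GC bins were chosen after seeing the data. Tables were computed with pandas 2.3.3 and numpy 2.4.6 in Python 3.11.15, densities with scipy 1.17.1, and plots with matplotlib 3.10.9.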

Additional observations from a re-analysis of the deposited data

How the results depend on the processing

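Under the filter of 1 FPKM or more in either library, 22 of the 39 genes were counted, 10 higher and 2 lower, and the median log2 ratio was 0.24 for replication and 1.73 for mitotic genes. Of the 10 higher genes, 8 passed the filter through the csMed1-/- value alone. These values therefore serve only as the base for the settings below and not as support. Of all genes kept by the filter, 13.6% were higher and 18.0% lower. The count of higher genes became 4 with a pseudocount of 1, 17 with no filter beyond values above 0, 2 with 1 FPKM in both libraries, 2 with 5 FPKM in either and 2 with a 4-fold threshold. The count of lower genes became 1 with a pseudocount of 0.1, with 5 FPKM in either library and with centring within GC bins, and 0 with a pseudocount of 1, median centring, 75th percentile scaling and a 4-fold threshold. The mitotic median became 0.86 with a pseudocount of 1. Over all 24 mitotic genes the median of 1.47 became 0.96 with a pseudocount of 0.1 and 0.34 with a pseudocount of 1. A pseudocount pulls ratios of genes near or below it toward 1, and a stricter filter tests fewer genes. The share of all genes past 2-fold was not counted with the pseudocounts, the scalings, the GC centring or those stricter filters. The filter on the mean of both libraries, chosen after seeing the data, left 7 higher and 2 lower. Of the 39 single ratios, 7 moved inside 2-fold with a pseudocount of 0.1 and 16 with a pseudocount of 1. A change of direction past 2-fold was not possible under these settings and is not reported as a result. The same amount added to both values cannot reverse a ratio, and the scalings moved log2 ratios by at most 0.0709. The GC centring moved them by less than the threshold, and each of these genes had only 1 row. No paired analysis was possible because each genotype has 1 pooled library. Leaving out a replicate was not possible for the same reason, and the variation between pools, or between the mice in a pool, cannot be estimated from these files.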
